A study of Mus musculus with 8 samples.

Results

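Microglia sorted from mouse brain tumors were profiled by 3′ RNA sequencing, and their protein-coding transcripts are described here by abundance. The population was chosen by its group label, which 3 of the 8 libraries in the series carry, and no measured value entered the choice. Of 55450 genes in the count table, 21951 were annotated as protein-coding and were ranked. The cells came from wild-type mice that carried GL261, a transplantable mouse glioma line, implanted in the brain. They were positive for F4/80 and CD11b, low for CD45, low or negative for Ly6C and CD49d, and negative for Ly6G. No further treatment is named, and the age and sex of the mice are not given in the labels used here. Nor do the labels say whether microglia 1, 2 and 3 came from separate mice, so the spread between them may be partly technical.

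Microglia are the resident macrophages of the brain. They arise from yolk sac progenitors, are maintained by signaling through the Csf1 receptor, sense neurons through the fractalkine receptor Cx3cr1, and supply complement C1q and lysosomal proteases that serve the removal of synapses and debris. In gliomas they share the tissue with macrophages that enter from the blood.

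The short upstream sequences below belong to abundant transcripts of the main functional classes described here, and they show what the promoter motifs look like in front of them. The following motifs were searched on both strands in the 250 bases before each RefSeq start (GRCm38.p6): TCACGTGA, the E-box core of lysosomal genes, TGACGTCA, the cAMP response element, GGANNTTCC, the larger part of an NF-kB site, GAGGAAGT, the core bound by PU.1, and TATAAA, the TATA box. The NF-kB and PU.1 motifs can share letters. Each gene shown carries its motif, and was picked among abundant carriers, mostly within a class described here, after its level was known. Capitals mark the motif, and every sequence is written 5′ to 3′ on the strand of its gene. For Ctsd (cathepsin D, chr7:142387908-142387937, minus strand), Ctsa (cathepsin A, chr2:164833743-164833772, plus strand) and Atp6v1a (a subunit of the lysosomal proton pump, chr16:44139338-44139437, minus strand), the capitals are the E-box core. For Dusp1 (a MAP kinase phosphatase, chr17:26508562-26508661, minus strand) and Ppp1r15a (a stress-induced phosphatase subunit, chr7:45526269-45526298, minus strand), they are the cAMP response element. For B2m (the class I light chain, chr2:122147515-122147614, plus strand) and Nfkbia (the NF-kB inhibitor, chr12:55492772-55492871, minus strand), they are 1 match to the NF-kB motif, on the opposite strand in B2m. For C1qc (a C1q chain, chr4:136893091-136893120, minus strand), they are the PU.1 core on the opposite strand, and for Fos (chr12:85473790-85473889, plus strand), the TATA box.
Ctsd: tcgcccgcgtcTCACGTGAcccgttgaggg
Ctsa: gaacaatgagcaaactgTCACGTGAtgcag
Atp6v1a: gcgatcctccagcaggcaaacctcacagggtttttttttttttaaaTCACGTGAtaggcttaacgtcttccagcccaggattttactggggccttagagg
Dusp1: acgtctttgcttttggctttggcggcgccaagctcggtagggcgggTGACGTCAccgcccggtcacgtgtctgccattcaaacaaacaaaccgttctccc
Ppp1r15a: gagaccccgcctctccggTGACGTCAgcac
B2m: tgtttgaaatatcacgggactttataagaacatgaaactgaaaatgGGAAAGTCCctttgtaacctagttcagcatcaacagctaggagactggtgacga
Nfkbia: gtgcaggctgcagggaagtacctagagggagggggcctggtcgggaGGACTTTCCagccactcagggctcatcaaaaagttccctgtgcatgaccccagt
C1qc: ggacggcagacACTTCCTCattttggcaca
Fos: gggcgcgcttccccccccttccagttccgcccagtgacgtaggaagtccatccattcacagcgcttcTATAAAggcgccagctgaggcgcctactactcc

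The libraries held 16659154, 10491469 and 11390715 counts in microglia 1, 2 and 3. The gene model Gm42418, which lies over ribosomal RNA, took 34.0%, 43.4% and 47.0% of these counts, and the mitochondrial rRNA genes mt-Rnr1 and mt-Rnr2 together took 4.14%, 3.26% and 1.94%. These 3 genes were left out before scaling, and levels are given as CPM, the count scaled to a total of 1000000 over the remaining 10304077, 5595676 and 5810782 counts. Protein-coding genes took 95.03% ± 0.825 (SD, n = 3) of the remaining counts. A 3′ library counts about 1 read site per transcript whatever its length, so CPM was used for the ranks, and the order per kilobase of exon is given for the first genes. Microglia 3 stood apart from the other libraries, as described for the consistency of the 3 libraries, and values are therefore given for each library.

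The sort genes and microglia markers were checked first. Cx3cr1 (chr9:119901616-120069879) measured 3488, 2218 and 6156 CPM in microglia 1, 2 and 3 and ranked 11. Sparc, a matrix-associated glycoprotein, measured 1472, 602 and 1733 CPM, and Siglech, a sialic acid-binding lectin, 355, 200 and 455 CPM. P2ry12, the ADP receptor that guides microglial processes, measured 268, 93.6 and 221 CPM and ranked 921. All of the 5 defining markers were detected in every library, the lowest in level being Sall1 (chr8:89027235-89044162), a zinc finger factor of microglial identity, with 114, 87.9 and 153 CPM. Each of the 5 was lowest in microglia 2, where their summed level was 3201 CPM, against 5697 in microglia 1 and 8718 in microglia 3. Among the sort genes, Itgam (CD11b) measured 566 ± 100.1 CPM, Ptprc (CD45) 349 ± 16.6 CPM and Adgre1 (F4/80) 136 ± 27.8 CPM (SD, n = 3). Itga4, which encodes CD49d, measured 13.1, 31.1 and 17.9 CPM. Ly6g had 0 counts in each library, for which 3 counts, the limit that a count of 0 allows, correspond to 0.291, 0.536 and 0.516 CPM in microglia 1, 2 and 3.

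Transcripts of other cell types were low but present. The monocyte-derived list (8 genes) summed to 80.2 to 108 CPM, the neutrophil list (8 genes) to 3.27 to 24.2 CPM, the T or NK cell list (8 genes) to 6.20 to 14.8 CPM and the dendritic cell list (7 genes, Cd209a at 0) to 5.85 to 9.47 CPM. The border-associated macrophage list (8 genes) summed to 49.3, 146 and 30.6 CPM, highest in microglia 2. Most of that sum came from Mrc1 (91.7 CPM) and Pf4 (34.8 CPM), while Siglec1 and Cbr2 were highest in microglia 3 (6.88 and 4.30 CPM). Glial progenitor genes, which glioma cells can also express, summed to 440, 579 and 164 CPM over 8 genes, highest in microglia 2. Astrocyte genes summed to 248 to 438 CPM, and genes of oligodendrocytes (129 to 184 CPM), neurons (75.2 to 157 CPM) and endothelial cells or pericytes (45.3 to 108 CPM) were lower. Most of the astrocyte sum came from Slc1a3 (248, 150 and 193 CPM) and S100b (135, 80.8 and 34.4 CPM). Of the other listed astrocyte genes, Slc1a2 reached the highest level, 20.6 CPM in microglia 1, and Gfap measured 1.65, 1.25 and 0.860 CPM. The B cell list summed to 38.2 to 140 CPM, with Cd79a at 0, and the erythroid list to 204 to 441 CPM. In sorted bulk cells, few cells of another type and little RNA from many cannot be told apart. The part of such RNA in the levels below was not tested.

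**Figure D1:**
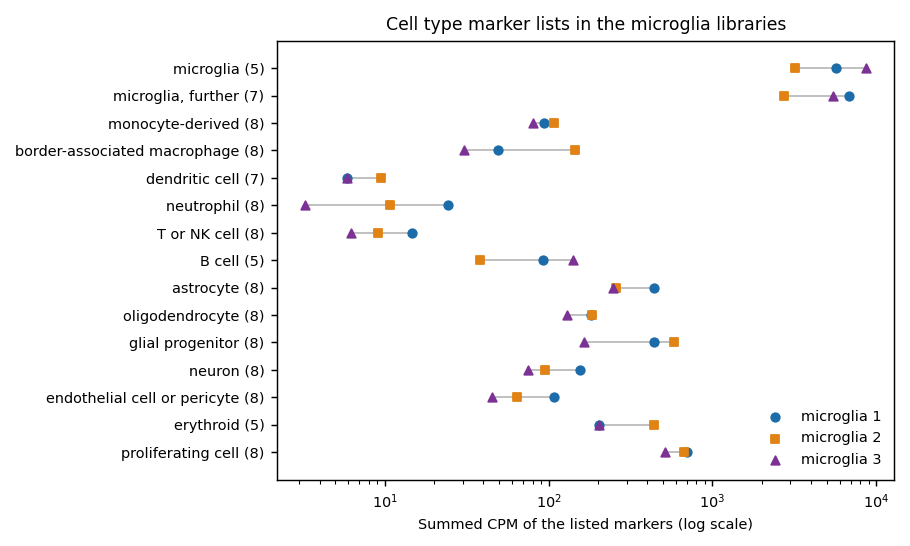
Summed CPM (log scale) of fixed marker lists in microglia 1, 2 and 3, with the number of genes in each list in brackets and a gray line from the lowest to the highest library. The microglia list sums to 3201 CPM or more in each library, and no list of another immune lineage exceeds 146 CPM.

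The transcriptome was broad. In all 3 libraries, 11207 protein-coding genes reached 1 CPM, 7326 reached 10 CPM, 1557 reached 100 CPM and 60 reached 1000 CPM, while 5532 had no count. The 10 most abundant genes held 7.48% ± 2.18 of protein-coding counts and the 100 most abundant 24.2% ± 2.86 (SD, n = 3). In order of mean level, 648 genes held 50% and 4902 genes held 90% of the protein-coding counts. The mean level was 974 CPM at rank 100, 315 CPM at rank 500 and 183 CPM at rank 1000, and the first gene lay 16.3-fold above rank 100. Microglia 3 had the most concentrated profile, with 9.99% of its protein-coding counts in those 10 genes, against 6.41% in microglia 1 and 6.05% in microglia 2. It also had the fewest protein-coding genes with a count when each library was thinned to 5595676 counts, 13170 against 15008 in microglia 1 and 14424 in microglia 2.

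**Figure D2:**
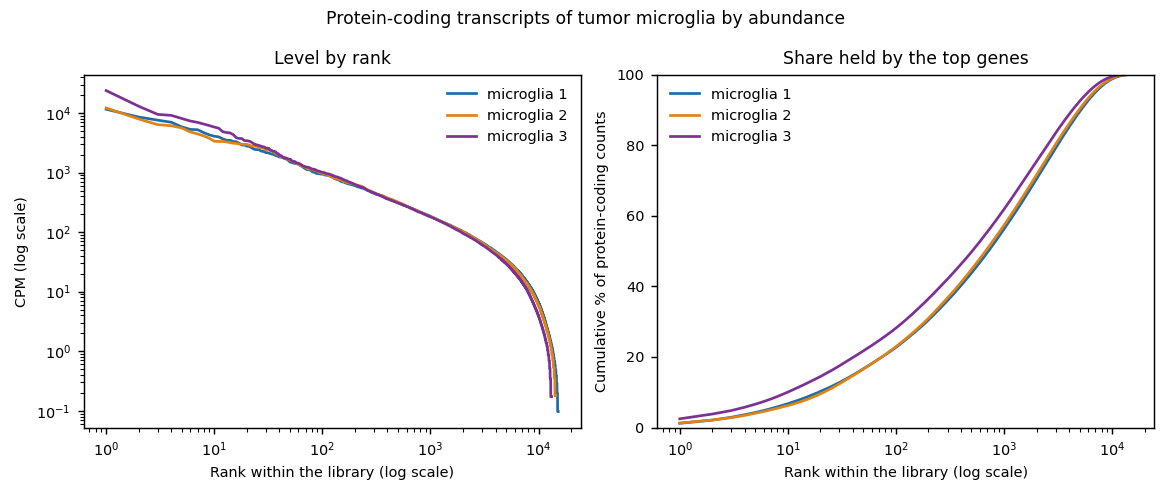
Left, CPM against rank within each microglia library, both on log scales; right, cumulative percentage of protein-coding counts against rank (log scale). The curve of microglia 3 lies above the others over the first ranks, its 10 most abundant genes holding 9.99% of its protein-coding counts.

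The most abundant transcripts encoded actin, cystatin and cathepsins, class I antigen presentation and complement C1q. Actb (chr5:142903115-142906754), cytoplasmic actin, led in every library with 11569, 12172 and 23823 CPM. Cst3 (chr2:148871722-148875692), the secreted cathepsin inhibitor cystatin C, followed with 8560, 3754 and 13004 CPM. Both were highest in microglia 3, and Cst3 differed 3.46-fold between its highest and lowest library. H2-K1, a class I heavy chain, ranked 3 with 7002, 7941 and 9132 CPM. C1qa (chr4:136895917-136898803), a chain of the complement starter C1q, ranked 4 with 5248, 6121 and 9484 CPM, and Ctss, the protease cathepsin S, ranked 5 with 5855, 6382 and 8115 CPM. These 3 genes had the same order of libraries, lowest in microglia 1 and highest in microglia 3. Tmsb4x, which binds free actin, measured 7588, 5611 and 5810 CPM, and B2m, the class I light chain, 5308, 4466 and 7348 CPM. Nfkbia ranked 8 with 3491, 4809 and 5565 CPM, and Ctsd ranked 9 with 3282, 2994 and 6966 CPM. Ctsd was more than 2 times higher in microglia 3 than in the other libraries, which lay close together.

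The spread between libraries limits how far neighboring ranks can be told apart. The mean of Cst3 was 8439 ± 4626 CPM and that of H2-K1 was 8025 ± 1067 CPM (SD, n = 3), so their order is not resolved by these libraries. Of the 30 most abundant genes, 17 were among the first 30 of every library, and of the 100 most abundant genes, 65 were among the first 100 of every library. None of the first 10 ranked below 23 in any library, but a gene of the first 100 ranked as low as 536. The limit at 100 separates neighbors of like level, and Zfp36, just outside it, measured a mean of 974 CPM. Per kilobase of exon, the first 6 genes were C1qa, Cst3, B2m, Actb, Ctss and Tmsb4x. Their counts per kilobase, rescaled to a total of 1000000 in each library, averaged 18346, 18337, 18176, 16289, 13663 and 12555. On that scale, 66 of the 100 most abundant genes stayed among the first 100. By position, the first 100 lay on 21 chromosomes, the mitochondrial genome included.

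**Figure D3:**
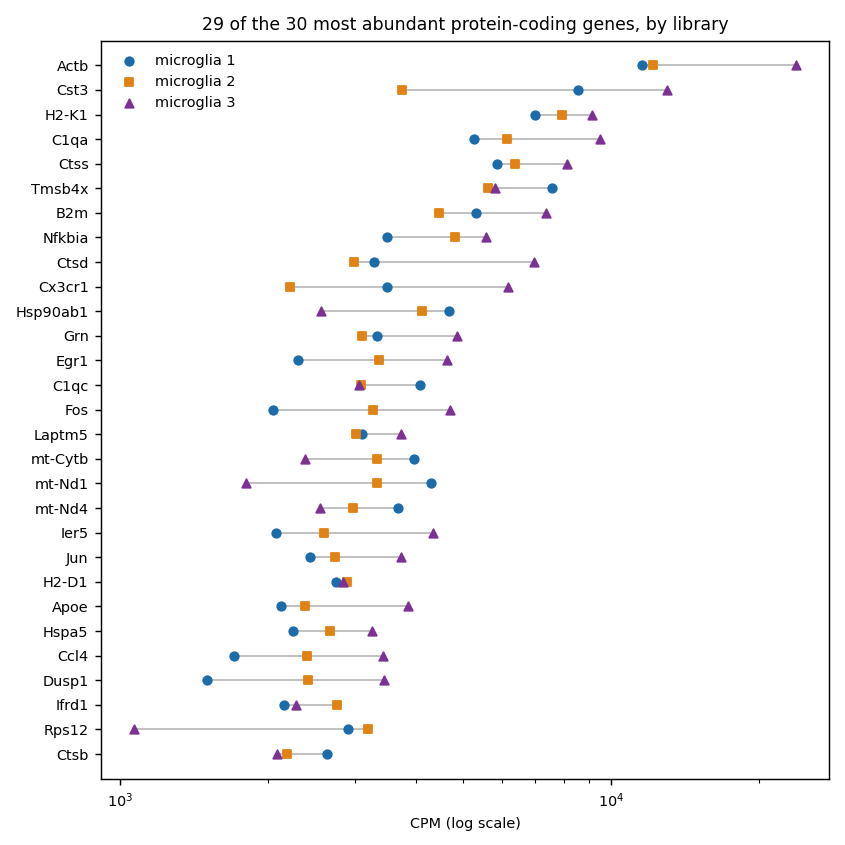
CPM (log scale) of 29 of the 30 protein-coding genes with the highest mean level, 1 row per gene and 1 symbol per library. Actb is first in every library, and the symbols of microglia 3 lie highest for Cst3, Ctsd and Cx3cr1 and lowest for Rps12 and mt-Nd1.

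Genes were placed in 34 functional classes, each gene in 1 class only. Of the 100 most abundant genes, 83 fell in 20 of these classes. The other 17 included Ifrd1, a transcription cofactor (2158, 2769 and 2280 CPM), Itm2b, the cyclin gene Ccnd1 and Glul, glutamine synthetase. Genes in no class held 57.5% ± 2.15 of protein-coding counts.

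Cytosolic ribosomal proteins formed the class with the highest mean share, at 5.78%, 6.20% and 3.26% of protein-coding counts in microglia 1, 2 and 3, and 16 of its genes were among the first 100. Rps12, first of the class by CPM, measured 2909, 3194 and 1069 CPM, while per kilobase of exon Rplp1 was first, at rank 7 of all genes against 25 for Rps12. Rps20 measured 2434, 2531 and 1676 CPM, and Rpl37 2503, 2794 and 1143 CPM. Of 81 members averaging 10 CPM or more, 70 were lowest in microglia 3, where 47.4% of all such genes were lowest. Without microglia 3 the share of the class was 5.99%, against a mean of 5.08% ± 1.59 over the 3 libraries. How reads matching several genes or pseudogenes were counted is not given, and its part in this share was not tested. Its 6 carriers of TGACGTCA were 9.84% of the 61 members matched to a promoter. That motif preceded 1.77% of all 27025 genes in the promoter table and 3.36% of the matched genes averaging 10 CPM or more. GGANNTTCC also preceded 6 of the 61 members, against 4.12% and 4.90% of these gene sets, and the shares were not tested.

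Nuclear genes of the respiratory chain and ATP synthase took 1.17%, 1.06% and 0.617% of protein-coding counts, and 62 of 77 members averaging 10 CPM or more were lowest in microglia 3, against 47.4% of all such genes. Atp5g3, a subunit of the ATP synthase ring, was first of the class by CPM at 613, 704 and 230 CPM. Mitochondrially encoded mRNAs took 1.73%, 1.43% and 1.14%, with mt-Cytb (cytochrome b) at 3971, 3327 and 2374 CPM and mt-Nd1 (a complex I subunit) at 4291, 3328 and 1800 CPM. These 2 mitochondrial transcripts followed the same order of libraries. S100 proteins and annexins were lowest in microglia 3 for 12 of 15 such members, against the same 47.4%, and S100a6, a calcium-binding protein, measured 511, 616 and 104 CPM. The median exon length was 1781 bases for the ribosomal members, 1718 bases for the nuclear respiratory members and 1777 bases for the S100 and annexin members, against 4971 bases for all 8579 genes averaging 10 CPM or more. Over those 8579 genes, which share the 3 libraries, the departure of microglia 3 and exon length had a Spearman correlation of 0.030. The part of transcript length in these shares was not tested.

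Immediate early and stress-inducible genes, which are transcribed within minutes of a stimulus, took 3.67%, 4.74% and 6.51% of protein-coding counts. All of the 57 listed genes reached 1 CPM in every library, 6 were among the first 30 genes and 13 among the first 100. Egr1, a zinc finger factor, measured 2305, 3360 and 4635 CPM, and Fos, a subunit of the AP-1 factor, 2044, 3268 and 4704 CPM. Ier5 measured 2079, 2598 and 4332 CPM, and Jun, the partner of Fos, 2432, 2737 and 3737 CPM. Each of these 4 genes was lowest in microglia 1 and highest in microglia 3, and neighboring libraries were separated by less than a doubling. Dusp1 followed the same order at 1505, 2407 and 3446 CPM, as did Fosb at 649, 1567 and 2958 CPM, which spans 4.56-fold. Of 56 members averaging 10 CPM or more, 34 were lowest in microglia 1, where 24.1% of all such genes were lowest. Hspa1a, an inducible heat shock protein, had another order and measured 383, 83.1 and 149 CPM. The sources used here do not give the time from dissection to lysis, and the part of handling in these levels was not tested.

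Of the 56 members, 48 had a promoter sequence in which motifs could be searched. TGACGTCA, shown above in Dusp1 and Ppp1r15a, preceded 5 of 48 matched members (10.4%), against 1.77% of all genes. GGANNTTCC, shown in Nfkbia, preceded 7 of 48 (14.6%), against 4.12% of all genes, and TATAAA, shown in Fos, 8 of 48 (16.7%), against 14.3%. Among all matched genes averaging 10 CPM or more, the shares were 3.36%, 4.90% and 7.60% for the 3 motifs in that order. A match describes letters in the window and is not a measured site, and these shares were not tested.

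The degradative machinery of the endosome and lysosome was spread over 3 classes. Cathepsins, legumain and cystatins took 2.68%, 2.25% and 3.75% of protein-coding counts, mostly through Cst3, Ctss and Ctsd. Ctsb, cathepsin B, measured 2631, 2183 and 2081 CPM, and Ctsz, cathepsin Z, 1246, 1399 and 1451 CPM. These 2 proteases varied less between libraries than Cst3, spanning 1.26-fold and 1.16-fold. Lysosomal hydrolases and membrane proteins took 1.77%, 1.68% and 2.14%, and 52 of the 54 listed genes reached 1 CPM in every library. Grn, which encodes progranulin, measured 3328, 3109 and 4843 CPM, and Laptm5, a lysosomal membrane protein of leukocytes, 3111, 3025 and 3731 CPM. Both were highest in microglia 3. The V-ATPase proton pump, which acidifies lysosomes, took 0.373% ± 0.021 (SD, n = 3). Only 1 of its 17 members averaging 10 CPM or more (5.88%) spanned 2-fold or more between the lowest and the highest library, against 29.4% of all such genes. The E-box core TCACGTGA, shown above in Ctsd, Ctsa and Atp6v1a, preceded 5 of 67 matched members of these classes (7.46%), against 0.907% of all genes and 2.11% of the matched genes averaging 10 CPM or more. Among the 100 most abundant genes, it preceded 4 of 73 matched genes (5.48%). A match is not a measured site, and these shares were not tested.

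Transcripts of the class I list were more abundant in sum than those of the shorter class II list. The class I list (23 genes) took 1.88%, 1.86% and 2.30% of protein-coding counts and the class II list (11 genes) 0.465%, 0.446% and 0.40%. H2-D1, a second class I heavy chain, was nearly level at 2755, 2902 and 2848 CPM. Tapbp, which loads peptides on class I molecules, measured 435, 454 and 744 CPM. Within class II, Cd74, the invariant chain, measured 1122, 1630 and 2093 CPM, while the chain gene H2-Aa measured 1036, 769 and 401 CPM. H2-Eb1, another class II chain, measured 907, 506 and 356 CPM. The invariant chain was thus highest in the library where H2-Aa and H2-Eb1 were lowest. The sources used here do not say how reads matching several H2 genes were assigned, which leaves the levels of single H2 genes less certain.

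Complement genes took 1.28%, 1.26% and 1.70% of protein-coding counts, mostly from C1q. C1qc measured 4084, 3090 and 3066 CPM and C1qb 2025, 1844 and 2784 CPM, so the 3 chains of C1q were all among the first 32 genes but did not share one order of libraries. C3ar1, the receptor for the fragment C3a, was the next member, with 283, 295 and 414 CPM, and C3 itself measured 51.8, 36.5 and 47.2 CPM.

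Receptors and regulators enriched in microglia took 2.16%, 1.36% and 2.56% of protein-coding counts. After Cx3cr1 came Csf1r, the receptor that sustains microglia, with 2784, 878 and 1439 CPM, and Rgs2, a regulator of G protein signaling, with 1407, 1686 and 1932 CPM. Csf1r was 3.17-fold higher in microglia 1 than in microglia 2. Tmem119, a microglial membrane protein, measured 550, 242 and 605 CPM, and Fcrls 285, 66.3 and 271 CPM. P2ry13, a nucleotide receptor, measured 938, 312 and 425 CPM, and Gpr34, a lipid receptor, 170, 74.0 and 303 CPM. Of 44 members averaging 10 CPM or more, 37 were lowest in microglia 2, where 28.5% of all such genes were lowest. No member was lowest in microglia 3. Without microglia 2 the share of the class was 2.36%, and without microglia 3 it was 1.76%. The border-associated macrophage list, at 146 CPM in microglia 2 against 49.3 and 30.6, was highest in that library, mostly through Mrc1 and Pf4. The part of such cells in these levels was not tested.

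**Figure D4:**
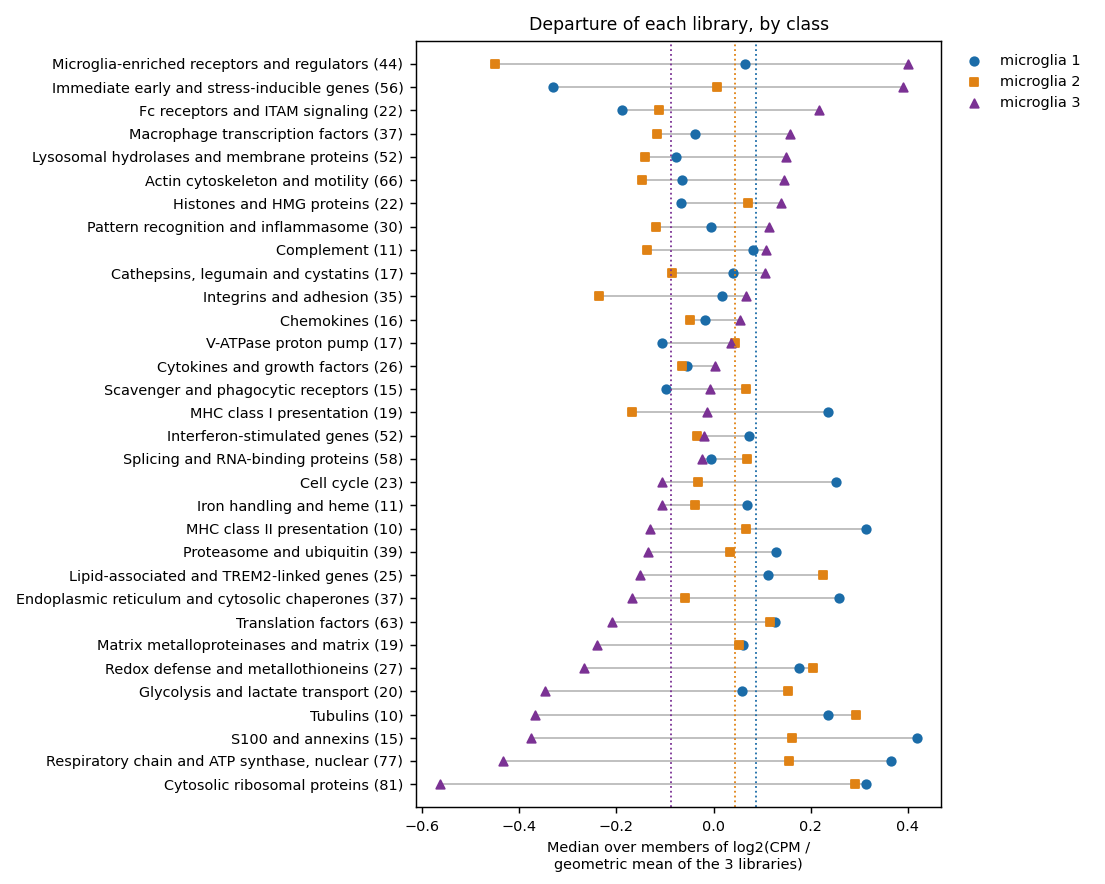
Median over the members of each class of log2 of the CPM in a library over the geometric mean of the 3 libraries (log2 scale), for classes with at least 10 members with a mean of 10 CPM (number in brackets); dotted lines give the same median over all 8579 genes. Microglia 3 ranges from -0.56 for ribosomal proteins to 0.40 for microglia-enriched genes, and microglia 2 is at -0.45 for the latter.

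Transcription factors of macrophages took 1.31% ± 0.159 of protein-coding counts (SD, n = 3). Id2, an inhibitor of helix-loop-helix factors, measured 1807, 1169 and 964 CPM, highest in microglia 1. Nfe2l2, the regulator of antioxidant genes, was nearly level at 1100, 990 and 1022 CPM.

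Lipid-associated and Trem2-linked genes, a group that microglia switch on around damage, took 0.941%, 1.11% and 1.04% of protein-coding counts. Apoe, the lipid carrier, measured 2124, 2381 and 3848 CPM, and Cd63, a late endosomal tetraspanin, 1373, 2560 and 1751 CPM. Gpnmb, a glycoprotein of lipid-laden macrophages, measured 453, 763 and 211 CPM, and Lgals3, galectin-3, 574, 593 and 228 CPM. Trem2, the receptor, measured 501, 236 and 294 CPM and its adaptor Tyrobp 654, 389 and 269 CPM. Of 25 members averaging 10 CPM or more, 13 spanned 2-fold or more (52.0%), against 29.4% of all such genes.

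Among secreted signals, Ccl4, a chemokine for lymphocytes and monocytes, was first by CPM at 1701, 2400 and 3432 CPM. Ccl3, its relative, measured 448, 486 and 414 CPM, and Cxcl10, an interferon-induced chemokine, 510, 214 and 249 CPM. Only Ccl4 of these chemokines was among the first 100 genes. Il1b, the inflammasome-processed cytokine, was among the steadier transcripts at 417, 443 and 459 CPM. Tnf measured 267, 310 and 633 CPM and Pdgfb, a growth factor for glial progenitors and pericytes, 347, 372 and 717 CPM. Both were close in microglia 1 and 2 and highest in microglia 3. Csf1, a ligand of Csf1r, measured 465, 755 and 737 CPM. Chemokines as a class took 0.539% ± 0.080 and cytokines and growth factors 0.388% ± 0.046 of protein-coding counts (SD, n = 3).

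Glycolysis and lactate transport took 0.277% ± 0.027 of protein-coding counts (SD, n = 3). Hk2, the hexokinase at the entry of the pathway, was the first member by CPM at 713, 615 and 472 CPM, followed by Pfkfb3, which raises the activator of phosphofructokinase, at 257, 379 and 427 CPM. Aldoa measured 263 ± 55.4 CPM and Pkm 236 ± 53.0 CPM (SD, n = 3). Ldha, which makes lactate, measured 177, 126 and 57.8 CPM, the only one of these with its lowest library under 100 CPM. The fructose transporter gene Slc2a5, a marker of microglia, measured 144, 38.8 and 119 CPM. Gapdh was far lower than Hk2 in each library, as given under the other observations. How reads matching several genes or pseudogenes were counted is not given, and its part in the order and share of these genes was not tested.

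The summed shares of several classes varied little between libraries. Splicing and RNA-binding proteins took 2.39% ± 0.100 and interferon-stimulated genes 0.654% ± 0.030 of protein-coding counts (SD, n = 3). Of 58 splicing and RNA-binding members averaging 10 CPM or more, 5 spanned 2-fold or more (8.62%), against 29.4% of all such genes. Of 52 interferon-stimulated members, 12 did so (23.1%), and their median span of 1.62-fold was that of all such genes. Hnrnpk, an RNA-binding protein of that class, had the lowest coefficient of variation of the 200 most abundant genes (0.697%) with 1196, 1192 and 1180 CPM. Sdcbp, the scaffold syntenin, followed with 761, 774 and 780 CPM, and Rap1b, a small GTPase, with 622, 647 and 621 CPM. The phagocyte NADPH oxidase took 0.128% ± 0.011 of protein-coding counts (SD, n = 3). Its catalytic subunit Cybb measured 376, 324 and 417 CPM.

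Genes of the cell cycle were detected in every library. All of the 26 listed genes reached 1 CPM in each library, and the class took 0.181%, 0.163% and 0.134% of protein-coding counts. Top2a, a topoisomerase of dividing cells, measured 329, 296 and 188 CPM, and Mki67, the proliferation antigen, 104, 117 and 79.3 CPM. Which cells in the sort carried these transcripts was not tested.

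**Figure D5:**
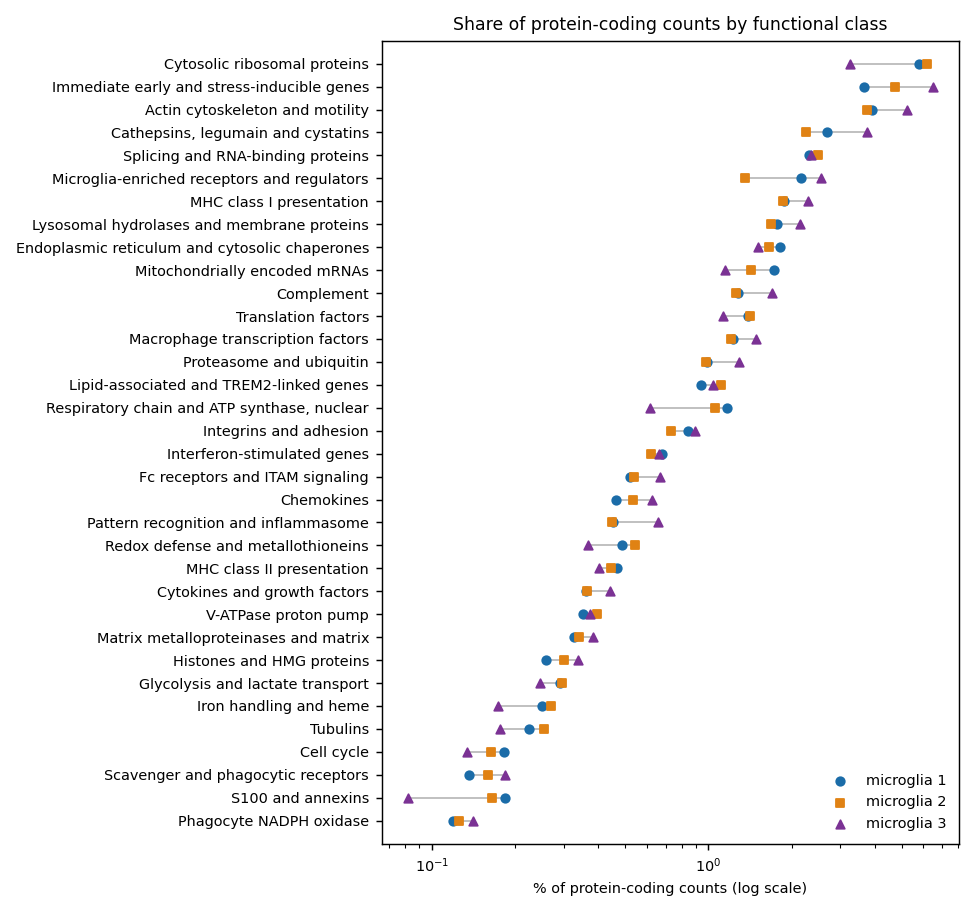
Percentage of protein-coding counts (log scale) held by each of 34 functional classes in microglia 1, 2 and 3, with a gray line from the lowest to the highest library. Ribosomal proteins are lowest in microglia 3 at 3.26%, below actin cytoskeleton genes at 5.22%, and immediate early genes are highest there at 6.51%.

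The 3 libraries were unevenly alike. Over the 8579 protein-coding genes averaging 10 CPM or more, the Spearman correlation of the levels was 0.928 for microglia 1 and 2, 0.874 for microglia 1 and 3 and 0.868 for microglia 2 and 3, a description of pairs that share the assay and the gene set. Between microglia 1 and 2, 93.3% of these genes were within 2-fold, against 80.3% and 80.2% for the pairs with microglia 3. The common biological coefficient of variation, an edgeR estimate of the spread beyond counting error, was 0.362 over the 3 libraries and 0.309 without microglia 3. Even the closest pair, microglia 1 and 2, differed beyond counting error, with a chi-square of 23.5 per degree of freedom. Microglia 3 also had 0 counts of the Y-linked genes Ddx3y, Uty, Eif2s3y and Kdm5d, which had counts in microglia 1 and 2. The part of the sex of the mice in the spread between libraries was not tested.

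Of the 8579 protein-coding genes averaging 10 CPM or more, 2523 (29.4%) spanned 2-fold or more from the lowest to the highest library, and the median span was 1.62-fold. Among the 100 most abundant genes 27 did so. Without microglia 3 the percentage was 7.12%, without microglia 1 it was 19.0% and without microglia 2 it was 19.1%. Of the 2523 genes, 1595 were lowest in microglia 3, 571 in microglia 2 and 357 in microglia 1.

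The 15 genes with the largest span among those averaging 100 CPM or more were lowest in microglia 3 with 1 exception. Usmg5, a small ATP synthase subunit, measured 304, 317 and 21.9 CPM, and Ndufa1, a complex I subunit, 152, 148 and 13.8 CPM. Rps27a, a fusion of ubiquitin and a ribosomal protein, measured 568, 459 and 67.3 CPM. Each was close in microglia 1 and 2 and at least 6 times lower in microglia 3. The tubulin genes Tubb2b (315, 538 and 90.5 CPM) and Tuba1a (193, 306 and 39.1 CPM) were lowest there too. The exception among the 15 was Gm47283, a gene model on chromosome Y, with 21.8, 75.4 and 250 CPM. Outside the 15, with means under 100 CPM, Sox10 (67.7, 119 and 24.8 CPM) and Olig2 (78.6, 140 and 22 CPM) were lowest in microglia 3 too. These lineage factors of glial progenitors were looked up after their values were seen. Nes, of the same marker list, was nearly level at 56.1, 58.8 and 52.0 CPM. Ccl8, a monocyte chemokine, stood apart by microglia 2, with 49.9, 275 and 21.5 CPM.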

How the data were processed

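RNA of the sorted cells was made into QuantSeq 3′ FWD libraries, per the labels' protocols. The authors deposited whole-number read counts per gene with no normalization. FastQC, cutadapt, STAR, featureCounts, DESeq2 and mm10 are named in the submitters' processing notes; versions, strand setting and treatment of reads with several matches are not given in the sources used here. All identifiers (100%) matched GENCODE M21 (GRCm38), which gave positions and exon lengths.

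CPM was computed from each library's total without Gm42418, mt-Rnr1 and mt-Rnr2. Protein-coding genes were ranked by mean CPM. Spans set a library with 0 counts to 3 counts. Named genes were the first 30, up to 5 per class, the 15 widest spans from 100 CPM, the 10 steadiest of the first 200, and markers. Genes outside this rule, named after their values were seen, were C3, Fosb, Hspa1a, Trem2, Tyrobp, Tmem119, P2ry13, Fcrls, Gpr34, Ldha, Slc2a5, Itm2b, Ccnd1, Glul, the motif carriers Ctsa and Ppp1r15a, and those so described in the text. The coefficient of variation came from edgeR 4.0.16 in R 4.3.3 (TMM, filterByExpr, intercept only, 12022 genes), tested on simulated data. Other values used Python 3.11.15 and pandas 2.3.3. Members and lists were chosen with earlier results of these data known. With 1 group, no test between groups was made. Alternatives covered the genes left out, the denominator, depth, exon length, thresholds, filters and each library left out. Depth limits precision: 3 counts were 0.291 to 0.536 CPM. Promoters came from RefSeq (GRCm38.p6), and 6884 of the 8579 genes averaging 10 CPM or more matched. A few genes that the naming rule selects are not reported here.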

Additional observations from a re-analysis of the deposited data

How the results depend on the processing

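The number of genes at 1 CPM in all 3 libraries (11207) stayed within 1.5 times of itself under every alternative run, from 8829 at a threshold of 5 CPM to 12288 without microglia 3. Per kilobase of exon, the share of the 100 most abundant genes moved from 24.2% to 40.6%, and the number of genes that hold 50% of the counts from 648 to 205. The percentage of genes spanning 2-fold moved from 29.4% to 47.7% with a mean of 1 CPM as the filter and to 17.4% with 100 CPM. Leaving out 1 library gave 7.12% to 19.1%, where only 2 libraries set the span. The common biological coefficient of variation moved from 0.362 to 0.901 with no filter beyond 1 count, to 0.290 with 10 CPM in all 3 libraries and to 0.351 with protein-coding genes only, and leaving out 1 library gave 0.309 to 0.410. Class shares stayed within 1 SD under all alternatives except counts per kilobase, where 28 of 35 moved, ribosomal proteins to 10.8% and cathepsins and cystatins to 5.32%. Leaving out 1 library in turn, 93 to 94 of the 100 most abundant genes were kept. No paired analysis was possible because 1 group is described and its values come from no test between groups. With 3 libraries, a single one can set a mean or SD, and levels near 0.536 CPM rest on about 3 counts.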

Other observations

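Some transcripts that often lead macrophage profiles were low in all 3 microglia libraries. Gapdh, the glycolytic enzyme, measured 45.9, 18.6 and 11.4 CPM and ranked 5839. Ftl1, the ferritin light chain, measured 42.7, 29.8 and 61.6 CPM, while Fth1, the heavy chain, measured 1782, 1415 and 974 CPM. Tmsb10, a relative of Tmsb4x, measured 13.3, 20.02 and 8.61 CPM. The sources used here do not say how reads that match several genes or pseudogenes were counted, and the part of this in these levels was not tested.

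Genes outside the protein-coding annotation also carried macrophage or long noncoding transcripts. Clec7a, the beta-glucan receptor, is annotated as a polymorphic pseudogene in the table and measured 390, 324 and 364 CPM. Ifi30, a lysosomal thiol reductase, is annotated as a processed transcript and measured 346, 319 and 258 CPM. Malat1, a nuclear long noncoding RNA, measured 11166, 16470 and 7894 CPM, above every protein-coding gene in microglia 2.

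Xist, expressed from the inactive X chromosome, was detected in all 3 libraries at 678, 363 and 2793 CPM. The Y-linked genes Ddx3y (36.6, 142 and 0 CPM), Uty (9.32, 86.0 and 0 CPM), Eif2s3y (6.5, 48.4 and 0 CPM) and Kdm5d (5.14, 17.0 and 0 CPM) had counts in microglia 1 and 2 and 0 counts in microglia 3. The sex of the mice and of any pooled animals is not given in the labels used here. Gm47283, a gene model that the annotation places on chromosome Y, had another pattern, 21.8, 75.4 and 250 CPM. Whether its reads came from chromosome Y was not tested.

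Several genes of other macrophage states were highest in microglia 2, and were picked after their values were seen. Arg1, arginase 1, measured 10.3, 232 and 3.27 CPM, Mrc1, the mannose receptor, 28.1, 91.7 and 14.8 CPM, and Hmox1, heme oxygenase 1, 199.5, 762 and 321 CPM. Il10 measured 0.970, 10.7 and 1.89 CPM. Microglia 2 also held the lowest summed level of the 5 microglia markers (3201 CPM).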
